A study of Mus musculus with 12 samples.

Results

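The question addressed here was whether the transcriptome of the developing mouse cortex differed between p18mKO2+ and p18mKO2- tissue by the same amount at each of 2 stages, E13.5 and E16.5 (embryonic days). It was read from 1 contrast, the p18 effect at E16.5 (p18mKO2+ over p18mKO2-) minus the p18 effect at E13.5, on the log2 scale. This difference of effects also equals the change from E13.5 to E16.5 in p18mKO2+ minus that in p18mKO2-. Because it needs all 4 groups, its members are the whole series, 12 of 12 libraries, with 3 libraries in each group. A negative value means that the p18 effect was more negative (or less positive) at E16.5, and a positive value the reverse.

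The samples were fragments of the dorsal cortex, taken from its ventricular zone by laser microdissection, and polyadenylated RNA was sequenced. The mice had a conditional knock-in at ROSA26, in which a stop sequence between loxP sites precedes a cassette of p18 joined by P2A to mKO2, an orange fluorescent protein. The series set out to relate inhibitors of cyclin-dependent kinases to the point at which neural progenitors turn to making astrocytes. Every library, controls included, came from tissue of tamoxifen-treated animals, tamoxifen being given by intraperitoneal injection to start Cre recombination. The first group, E13.5 p18mKO2-, and the third, E16.5 p18mKO2-, carry the genotype label normal. The second, E13.5 p18mKO2+, and the fourth, E16.5 p18mKO2+, carry an over-expression label for p18. Not given in the sources used here were the Cre driver, the day of the injection and the strain. Nothing in the labels says whether the 3 replicates of a group came from different litters or embryos. Sex-linked transcripts differed between the libraries of 3 of the 4 groups, which therefore did not all come from 1 embryo. For E13.5 p18mKO2- no such difference was seen, and its spread may be technical.

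The protein p18INK4c, encoded by Cdkn2c, binds the kinases CDK4 and CDK6 and keeps them from pairing with D-type cyclins, which holds the retinoblastoma protein active and the cell in G1. In the dorsal cortex, radial glia divide at the ventricle and give rise, directly or through intermediate progenitors, to deep-layer neurons first, to upper-layer neurons later and to astrocytes last. Newborn neurons leave the ventricular zone and switch on genes for the neuronal cytoskeleton, ion channels and synapses while genes of the cell cycle are switched off.

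Library totals ran from 17.1 M to 21.84 M estimated counts (M, 1e6), and 16798 genes were tested. The 9 dorsal ventricular zone markers checked (Pax6, Emx1, Emx2, Sox2, Hes5, Fabp7, Slc1a3, Vim and Nes) were present in every library, the lowest at 10.3 TPM (transcript level scaled for gene length and depth). Neuronal markers were present as well. The summed TPM of Dcx, Tubb3, Stmn2, Mapt and Neurod6 was 896 to 1147 in E13.5 p18mKO2-, 2146 to 2650 in E13.5 p18mKO2+, 2947 to 3533 in E16.5 p18mKO2- and 3350 to 3755 in E16.5 p18mKO2+. The deposited TPM carry no scaling between libraries. Their factors by TMM, a normalization between libraries, were 0.973, 0.967 and 0.802 in E16.5 p18mKO2-. In E16.5 p18mKO2+ they were 1.15 and 1.16 for replicates 1 and 2, with replicate 3 close to the highest control. The order of the 2 E16.5 groups therefore cannot be read from this sum. The fragments were bulk tissue, so that fewer cells of a type and less RNA per cell cannot be told apart. Y-linked transcripts and Xist showed embryos of both sexes, unevenly spread over the groups. All 3 E13.5 p18mKO2- libraries held Xist with at most 0.415 CPM (counts scaled to library size) of Y-linked transcripts, while replicate 3 of each p18mKO2+ group held both Xist (1250 CPM at E13.5 and 656 CPM at E16.5) and Y-linked transcripts (88.9 and 81.7 CPM). The other p18mKO2+ libraries held one or the other. E16.5 p18mKO2- replicate 3 had the highest share of mitochondrial counts, 8.28% against 3.18% to 4.53% in the other libraries.

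The targeted gene itself, Cdkn2c (GRCm38 chromosome 4, 109660876 to 109667189), was not called as stage-dependent. Cdkn2c stood at 27.6, 24.6 and 17.7 CPM in the 3 E13.5 p18mKO2- libraries, 22.9, 32.6 and 21.6 in E13.5 p18mKO2+, 22.5, 31.8 and 15.1 in E16.5 p18mKO2- and 30.2, 31 and 25.8 in E16.5 p18mKO2+. The groups overlapped at both stages on this scale. The p18 effect at E16.5 minus that at E13.5 was 0.19 ± 0.36 (log2 ± SE; adjusted p = 0.872 in edgeR's quasi-likelihood test with Benjamini-Hochberg adjustment). In the deposited TPM, which divide by transcript length, Cdkn2c was 26.5, 21.4 and 16.1 and 27.7, 32.6 and 30.2 in the E13.5 groups and 19.6, 28.7 and 13.7 and 38.2, 43.5 and 32.1 in the E16.5 groups, p18mKO2- first. On that scale every p18mKO2+ library lay above every p18mKO2- library of its stage. The TMM factors of these TPM were 0.986, 0.974 and 0.922 in E13.5 p18mKO2- and 1.04, 1 and 1.1 in E13.5 p18mKO2+. Dividing by them would lower the E13.5 p18mKO2+ values against their controls. The narrow E13.5 separation on deposited TPM can therefore be partly one of scale. The counts of Cdkn2c did not separate the labelled groups at either stage, and the files do not say how reads of the knock-in cassette were assigned. Of the other CDK inhibitor genes tested none was called either. Cdkn1a, which encodes p21, had a difference of effects of 1.12 ± 0.46 (edgeR adjusted p = 0.233) and Cdkn3, a phosphatase gene, one of 1.07 ± 0.40 (edgeR adjusted p = 0.19).

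Across the transcriptome, the stage-dependent genes fell mostly on the negative side, and the same group of libraries was lowest or highest in nearly all of them. edgeR called 453 of 16798 genes (2.7%) at an adjusted p under 0.05, 403 (2.4%) with a more negative p18 effect at E16.5 and 50 (0.298%) with a more positive one. E13.5 p18mKO2- had the lowest mean of the 4 groups in 401 of the 403 genes (99.5%) and the highest in 50 of the 50. Over all genes tested with a difference of the same sign, called or not, the corresponding shares were 69% and 69.5%. The called genes were chosen by a contrast of these same group means, so an extreme place for some group was likely from the start. The shares over all genes include many small differences and are not a matched background. By group mean, the group at the far end was usually E16.5 p18mKO2-, highest in 313 of the 403 genes (77.7%, against 39.9% over all genes of that sign) and lowest in 43 of the 50 (86%, against 48.6%). In some lists below, only its replicate 3 lay beyond E16.5 p18mKO2+. For cytoskeletal genes its list averages (log2, E13.5 controls at 0) were 1.55, 1.44 and 1.89, against 1.70, 1.49 and 1.53. For ion channels they were 1.40, 1.26 and 1.77 against 1.53, 1.43 and 1.35. For axon guidance genes replicate 3 was instead the lowest, at 0.18. The count of genes with this position without replicate 3 was not tested.

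The sizes of the 4 underlying changes show the same order. Among the 403 genes the median p18 effect was 1.31 for E13.5 against -0.15 for E16.5, where the middle 80% of the genes lay between -0.40 and 0.06. Read as changes over time, the same genes had a median stage change of 1.94 in p18mKO2- and 0.49 in p18mKO2+. Among the 50 genes the median p18 effect was -0.96 for E13.5 against 0.21 for E16.5, and the median stage changes were -1.60 and -0.43. These medians describe genes that were chosen by the contrast itself, and over all genes tested each of the 4 medians lay between -0.03 and 0.01.

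The same fits also give a view not limited to called genes, from the 11380 genes with a mean of at least 5 CPM. Their stage change had an SD across genes of 0.91 in p18mKO2- and 0.44 in p18mKO2+, and their p18 effect one of 0.60 for E13.5 against 0.25 for E16.5. Over all 16798 genes tested, low ones included, the SDs were 1.26 and 0.79 for the stage change and 0.93 and 0.64 for the p18 effect. Across the 11380 genes the stage change in p18mKO2+ followed that in p18mKO2- (Pearson r = 0.77, Spearman rho = 0.76; over all genes tested 0.52 and 0.58), and the p18 effect at E16.5 did not follow that at E13.5 (r = 0.05, rho = 0.01; over all genes tested 0.07 and 0.04). The median SE of the p18 effect at E16.5 was 0.25 over all genes tested, as large as its SD across the 11380 genes. The low correlation of the p18 effects therefore cannot show whether they were related. The 2 stage changes compared share no library, and neither do the 2 p18 effects. All libraries went through 1 normalization, and genes are not independent replicates. In the plot of fitted changes most of the called genes lie between the horizontal axis and the line of equal stage changes.

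**Figure D1:**
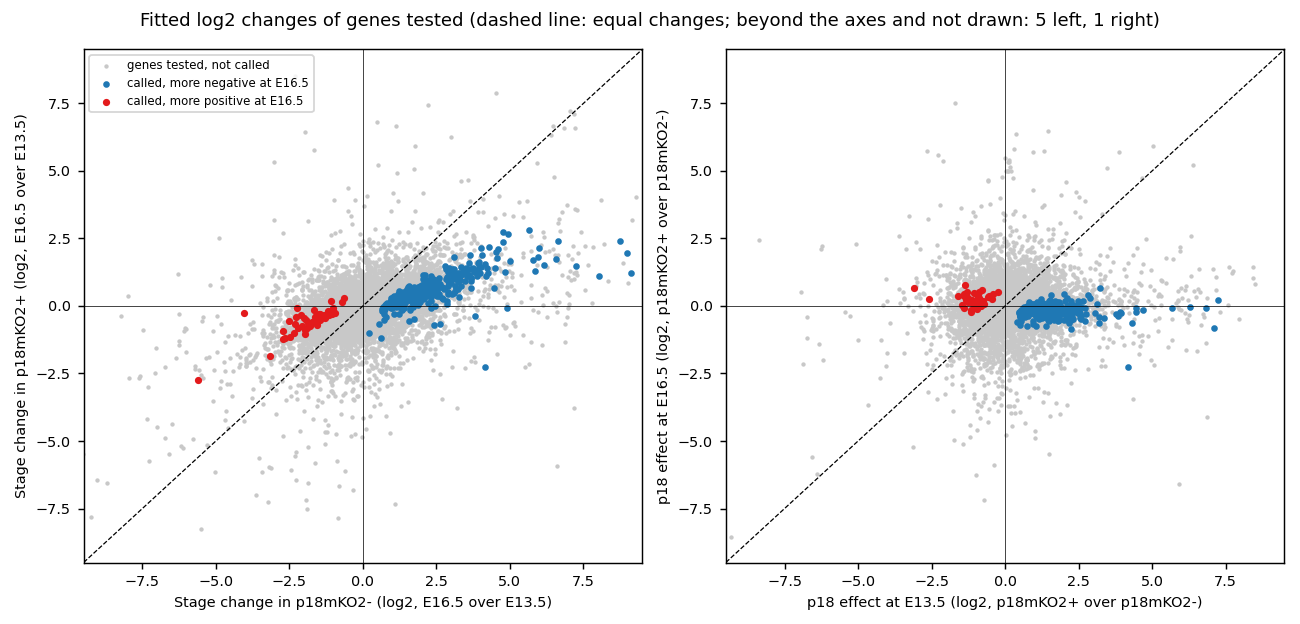
Fitted log2 changes of the genes tested, 1 point per gene, with the 403 genes called more negative in blue and the 50 called more positive in red. Left, the change from E13.5 to E16.5 in p18mKO2- (x axis) against that in p18mKO2+ (y axis); right, the p18 effect at E13.5 (x axis) against that at E16.5 (y axis), where the called genes spread along x and most stay near 0 on y.

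Genes of cell division leaned to the positive side as whole lists, and few of them passed the test singly. All 40 genes of S phase and DNA replication and all 50 genes of G2 and mitosis had a positive difference of effects, with medians of 0.78 and 0.79 against -0.03 over all genes tested. Called were 1 of the 40 (2.5%) and 2 of the 50 (4%), close to the 2.7% of all genes called in either direction. All of these calls were more positive, a direction with 0.298% of all genes. The 22 genes of G1 (cyclins, their kinases, pocket proteins and E2F factors) had a median of 0.44 and none called. Ccne1, the cyclin E gene that acts at the G1/S boundary, had a difference of 1.30 ± 0.37 (edgeR adjusted p = 0.0812) and E2f3, a transcription factor gene of S phase entry, one of 0.67 ± 0.22 (edgeR adjusted p = 0.121).

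The S phase list lay high in E13.5 p18mKO2- and lower in the other 3 groups. Its mean log2 CPM, set to 0 at the E13.5 p18mKO2- mean, was -0.82, -0.60 and -1.03 in E13.5 p18mKO2+, -1.10, -1.07 and -1.66 in E16.5 p18mKO2- and -1.32, -1.24 and -1.24 in E16.5 p18mKO2+. The G2 and mitosis list had the same order of groups. At E13.5 the p18mKO2 groups did not overlap in either list, and at E16.5 they did. Without E16.5 p18mKO2- replicate 3, the lowest library of both lists, the medians were 0.64 and 0.58.

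Ccnb2, a B-type cyclin of mitosis (GRCm38 chromosome 9, 70407692 to 70421547), stood at 94.6, 94 and 85.5 CPM in E13.5 p18mKO2-, 43.8, 57.4 and 39.6 in E13.5 p18mKO2+, 34.1, 37 and 22 in E16.5 p18mKO2- and 33.3, 32.4 and 34.7 in E16.5 p18mKO2+. The E13.5 control libraries stood above all others, and the E16.5 groups overlapped. The p18 effect on Ccnb2 was -0.96 ± 0.19 at E13.5, 0.11 ± 0.19 at E16.5 and different by 1.07 ± 0.26 (edgeR adjusted p = 0.0472). Kif23, a kinesin of the central spindle needed for cytokinesis, stood at 107, 107 and 122, 61.6, 70.4 and 58, 44.7, 41.1 and 29.2 and 43, 38.4 and 40 CPM in the same order of groups. It had the same pattern, with a difference of 0.90 ± 0.22 (edgeR adjusted p = 0.0448). Both calls were close to the threshold. Of the 12 fits that leave out 1 library, 9 did not call Ccnb2 (adjusted p 0.0518 to 0.135 in edgeR) and 9 did not call Kif23 (0.072 to 0.136).

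Promoters of mitotic genes often carry CCAAT boxes, bound by the factor NF-Y, and these were searched in the 250 bases before each gene's start (RefSeq, GRCm38.p6; 11494 of 16761 tested symbols matched). The letters CCAAT, or ATTGG on the other strand, were found in 30 of the 42 matched genes of G2 and mitosis (71.4%), in 19 of the 32 matched S phase genes (59.4%) and in 40.4% of all matched genes. The cell cycle homology element TTTGAA, or TTCAAA, was found in 15 of the 42 (35.7%), 5 of the 32 (15.6%) and 12.7% of all. The E2F motif GCGGGAA, or TTCCCGC, was found in 1 of the 42 (2.38%), 9 of the 32 (28.1%) and 7.96% of all. None of these motifs contains another, and a match is a description of the sequence, not a bound site. The 150 bases before the start of the 2 called mitotic genes are printed to show where the boxes lie, 5′ to 3′ on the coding strand (minus strand of GRCm38.p6), with CCAAT or ATTGG in capitals.
Ccnb2 promoter, chr9:70421555-70421704: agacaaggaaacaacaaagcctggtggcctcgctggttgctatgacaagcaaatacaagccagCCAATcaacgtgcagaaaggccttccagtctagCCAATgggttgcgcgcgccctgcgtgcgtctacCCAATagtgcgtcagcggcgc
Kif23 promoter, chr9:61946800-61946949: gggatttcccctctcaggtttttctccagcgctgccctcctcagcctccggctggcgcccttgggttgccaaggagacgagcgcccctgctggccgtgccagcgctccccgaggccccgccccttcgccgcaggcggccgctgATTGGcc

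Progenitor genes went to both sides. Of 29 radial glia genes 4 were called more positive and 2 more negative (20.7% called, against 2.7% of all genes), with a list median of 0.50. The 4 were Id4, Sox2, Emx2 and Hes5, and the 2 were Tnc and Ptprz1, a receptor phosphatase gene outside the rule for named genes, at -0.69. Of 24 genes of intermediate progenitors and proneural differentiation 1 was called in each direction (list median 0.19), the chromatin remodeller gene Chd7 at 1.08 ± 0.26 and Elavl2, which encodes a neuronal RNA-binding protein, at -0.83 ± 0.17. Of 19 early progenitor and timing genes tested, the 1 called was Hmga2, a chromatin protein gene of young progenitors, at 1.33 ± 0.31.

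Id4, which encodes an inhibitor of bHLH transcription factors, stood at 647, 655 and 729 CPM in E13.5 p18mKO2- and 265, 312 and 288 in E13.5 p18mKO2+. Its E16.5 levels were 109, 100 and 111 CPM in p18mKO2- and 114, 153 and 113 in p18mKO2+. The E13.5 control libraries held the most Id4 by a wide margin, E13.5 p18mKO2+ came next, and the E16.5 groups lay lowest and close together, without overlap. Id4 had a p18 effect of -1.23 ± 0.14 at the earlier stage, one of 0.25 ± 0.14 at the later stage and a difference of 1.48 ± 0.20 (edgeR adjusted p = 0.00181). Id4 (ENSMUSG00000021379, chromosome 13, 48261228 to 48266026, plus strand) was called in all 24 alternative fits made. Sox2, a transcription factor gene of neural progenitors, stood at 176, 200 and 205, 120, 149 and 117, 78.9, 74.9 and 88.7 and 93.2, 117 and 98.4 CPM in the same order of groups. It was lower in p18mKO2+ at E13.5 and higher in p18mKO2+ at E16.5, with no overlap of libraries at either stage. Its p18 effect passed the test at E13.5 (-0.59 ± 0.14, edgeR adjusted p = 0.0148) and not at E16.5 (0.35 ± 0.14, edgeR adjusted p = 1), and the difference of 0.94 ± 0.19 did (edgeR adjusted p = 0.0219).

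Emx2, a homeobox gene of the dorsal cortex, had a difference of 0.99 ± 0.22. Sox2 lies inside Sox2ot and Emx2 beside Emx2os on the opposite strand, so reads of these pairs may not be separated. Tnc, an extracellular matrix glycoprotein gene of radial glia and astrocytes, ran the other way. It stood at 16.6, 15.8 and 16.6 CPM in E13.5 p18mKO2-, 81.8, 75.4 and 43.5 in E13.5 p18mKO2+, 233, 317 and 238 in E16.5 p18mKO2- and 345, 285 and 261 in E16.5 p18mKO2+. The E13.5 control libraries were lowest and nearly alike, and the E16.5 groups overlapped. Its difference of effects was -1.86 ± 0.30 (edgeR adjusted p = 0.00572). Leaving out 1 library at a time never ended the call of Tnc or Id4, but it ended that of Sox2 in 6 of 12 fits (edgeR adjusted p up to 0.0878), Emx2 in 8, Hes5 in 10, Chd7 in 10, Hmga2 in 10 and Elavl2 in 6 (up to 0.124, 0.11, 0.162, 0.127 and 0.0842).

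**Figure D2:**
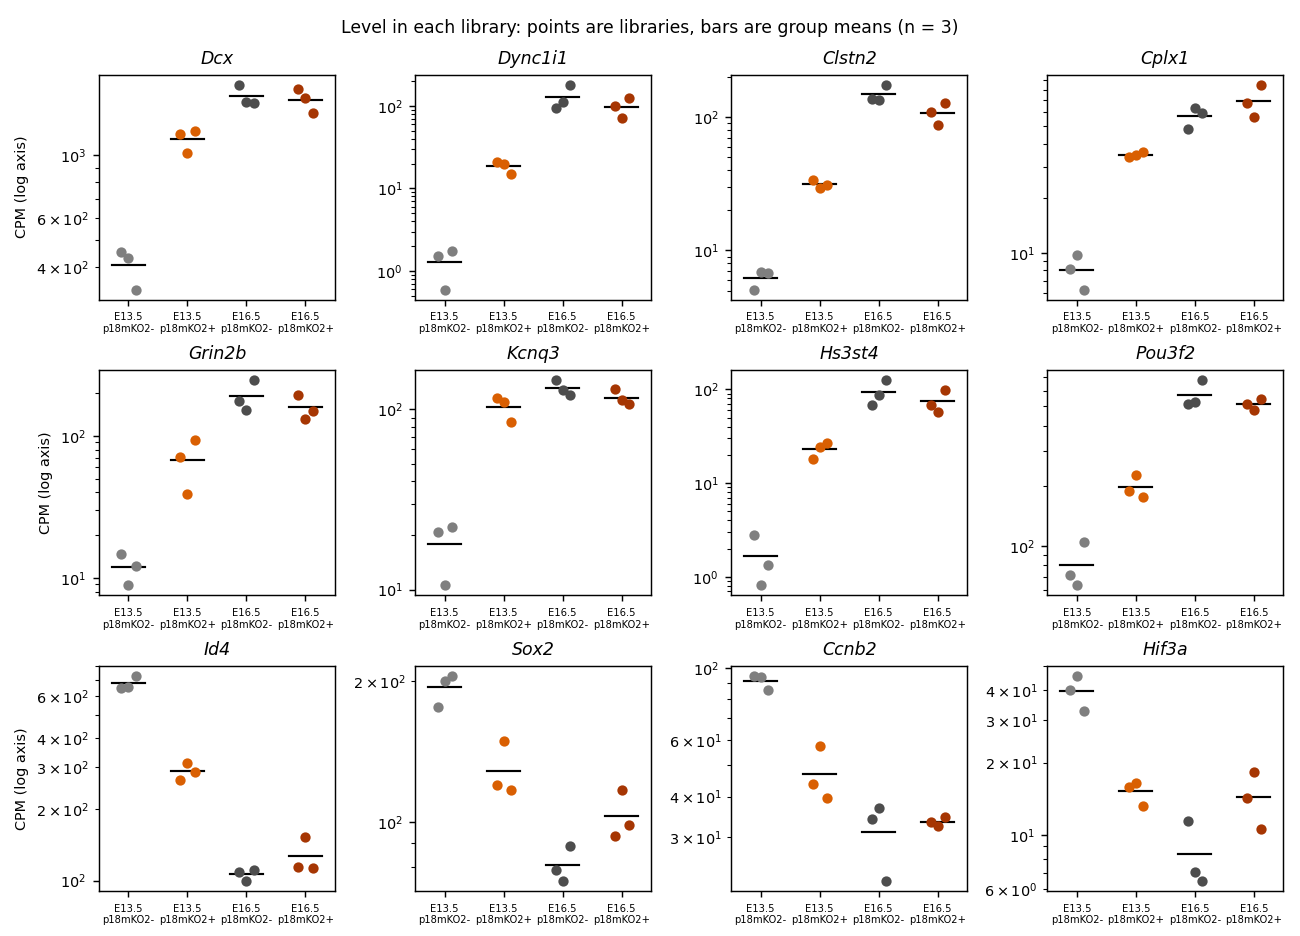
CPM on a log axis for 12 genes, 1 point per library and a bar at each group mean (n = 3 libraries per group). In the 8 genes of the upper 2 rows the E13.5 p18mKO2- libraries are lowest, and in the 4 genes of the bottom row they are highest.

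Genes of the neuronal cytoskeleton lay on the negative side. Of 30 genes 13 were called, all more negative (43.3%, against 2.4% of all genes in that direction), and all 30 had a negative difference of effects, with a median of -1.07. Dcx, a microtubule-associated protein gene of migrating neurons (ENSMUSG00000031285, chromosome X, 143855842 to 143933311, minus strand), stood at 454, 433 and 334 CPM in E13.5 p18mKO2- and 1187, 1016 and 1218 in E13.5 p18mKO2+. Its levels at E16.5 were 1774, 1541 and 1532 CPM in p18mKO2- and 1713, 1593 and 1405 in p18mKO2+. At E13.5 every p18mKO2+ library lay far above every control library, and at E16.5 the groups overlapped. As a stage change this was 1.99 ± 0.16 in p18mKO2- and 0.46 ± 0.15 in p18mKO2+.

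Of the motor protein genes in this list, 3 are named here. Dync1i1, the neuronal intermediate chain of cytoplasmic dynein (ENSMUSG00000029757, chromosome 6, 5725639 to 6028039, plus strand), stood at 1.51, 0.597 and 1.75 CPM in E13.5 p18mKO2-, 20.7, 19.8 and 15.1 in E13.5 p18mKO2+, 93, 112 and 180 in E16.5 p18mKO2- and 100, 70.7 and 123 in E16.5 p18mKO2+. The E13.5 p18mKO2+ libraries were thus well above their controls and still below every E16.5 library. Its difference of effects was -4.24 ± 0.46 (edgeR adjusted p = 0.000568). The kinesin genes Kif5a and Kif3c, of axonal transport, had differences of -1.51 ± 0.26 and -0.97 ± 0.18 (edgeR adjusted p = 0.00875 and 0.015). Kif3c lost its call when E13.5 p18mKO2+ replicate 1 was left out, and also without E16.5 p18mKO2+ replicate 2 and without replicate 3 (edgeR adjusted p 0.0505 to 0.0722). Of 22 genes of neuronal RNA binding and splicing 3 were called, all more negative (13.6%; median -0.72). Rbfox1, a splicing factor gene, stood at 12.4, 7.43 and 6.84, 47.5, 43.9 and 57, 126, 110 and 168 and 134, 111 and 124 CPM in the same order of groups. Its difference was -2.60 ± 0.31 (edgeR adjusted p = 0.000637), and the splicing regulator gene Khdrbs2 had -1.46 ± 0.30, a call lost in 3 of the 12 fits without 1 library (edgeR adjusted p 0.0576 to 0.0821).

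Genes of cortical layers were called on the negative side only. Of 23 deep-layer genes tested 10 were called (43.5%; median -0.95), and of 24 upper-layer genes 7 (29.2%; median -0.79). Deep-layer genes had a median stage change of 1.11 in p18mKO2- and 0.14 in p18mKO2+, where upper-layer genes had 1.88 and 0.99. The difference between the 2 lists was not tested.

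Among deep-layer genes, Hs3st4, a heparan sulfate sulfotransferase gene (ENSMUSG00000078591, chromosome 7, 123982869 to 124398989, plus strand), stood at 2.8, 0.814 and 1.35 CPM in E13.5 p18mKO2-, 18.2, 24 and 26.8 in E13.5 p18mKO2+, 67.7, 86.7 and 125 in E16.5 p18mKO2- and 67.8, 57.5 and 99.4 in E16.5 p18mKO2+. At E13.5 the groups were far apart, at E16.5 they overlapped, and each E16.5 library lay above each E13.5 library. Sox5, a transcription factor gene of early-born projection neurons, followed another course over time. It stood at 105, 68.2 and 111, 295, 282 and 175, 301, 288 and 266 and 239, 191 and 250 CPM, so that E13.5 p18mKO2+ replicates 1 and 2 were already at the level of the E16.5 controls. Its stage change was 1.59 ± 0.22 in p18mKO2- and -0.14 ± 0.21 in p18mKO2+, a difference of -1.73 ± 0.30 (edgeR adjusted p = 0.00875). Crim1, a transmembrane protein gene of corticospinal neurons, had a difference of -1.49 ± 0.22, and Nxph3, which encodes a ligand of neurexins, one of -3.80 ± 0.68 (edgeR adjusted p = 0.00319 and 0.0102).

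Among upper-layer genes, Mef2c, a transcription factor gene of maturing neurons, stood at 15.8, 10.7 and 22.9 CPM in E13.5 p18mKO2-, 72.7, 72.3 and 68.7 in E13.5 p18mKO2+, 324, 328 and 541 in E16.5 p18mKO2- and 331, 237 and 361 in E16.5 p18mKO2+. It was higher in all p18mKO2+ libraries at E13.5, and at E16.5 the groups overlapped around a level well above both. The stage change was 4.60 ± 0.29 in p18mKO2- and 2.12 ± 0.26 in p18mKO2+, and the difference -2.47 ± 0.37 (edgeR adjusted p = 0.00319). Pou3f2, a POU homeobox gene, stood at 71.6, 63.6 and 105, 189, 227 and 175, 514, 525 and 675 and 514, 477 and 546 CPM, with a difference of -1.45 ± 0.26 (edgeR adjusted p = 0.011). Without E16.5 p18mKO2+ replicate 2 that adjusted p was 0.0502, just short of a call.

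Of 46 axon guidance genes 6 were called, all more negative (13%; median -0.53). Robo2, a Slit receptor gene, had a difference of -1.53 ± 0.26 and Sema7a, a membrane-anchored semaphorin gene, one of -1.43 ± 0.26 (edgeR adjusted p = 0.00875 and 0.0111). The call of Sema7a was lost without E16.5 p18mKO2+ replicate 2 (edgeR adjusted p = 0.0567). Dcc, the netrin receptor gene, was an exception in its levels. It stood at 137, 139 and 144 CPM in E13.5 p18mKO2-, 295, 229 and 291 in E13.5 p18mKO2+, 149, 124 and 211 in E16.5 p18mKO2- and 128, 151 and 128 in E16.5 p18mKO2+. Only the E13.5 p18mKO2+ libraries stood apart, above all others. Its stage change was 0.20 ± 0.18 in p18mKO2- and -1.0 ± 0.18 in p18mKO2+ (edgeR adjusted p = 0.437 and 0.0114), and its difference of -1.21 ± 0.25 was called (edgeR adjusted p = 0.0213) but not in 5 of the 12 fits without 1 library (up to 0.066). E13.5 p18mKO2+ had the highest mean in 14 of the 403 genes (3.47%), against 23.9% of all genes with a negative difference.

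Genes of the synapse followed the cytoskeletal ones. Of 35 genes of presynaptic vesicles and release 9 were called (25.7%; median -1.03), and of 40 synaptic adhesion genes 13 (32.5%; median -1.07), all more negative. Cplx1, the gene of complexin, which clamps vesicle fusion (ENSMUSG00000033615, chromosome 5, 108518554 to 108550024, minus strand), stood at 8.15, 9.71 and 6.26 CPM in E13.5 p18mKO2-, 33.8, 34.6 and 36.3 in E13.5 p18mKO2+, 48.4, 63 and 59.4 in E16.5 p18mKO2- and 67, 56.5 and 85 in E16.5 p18mKO2+. The E13.5 p18mKO2+ libraries were tightly grouped between the E13.5 controls and the E16.5 libraries, where the groups overlapped. Its difference of effects was -1.83 ± 0.27 (edgeR adjusted p = 0.00278). The vesicle GTPase genes Rab3a and Rab3c had differences of -1.36 ± 0.23 and -1.75 ± 0.30, and Bsn, a scaffold gene of the active zone, -1.54 ± 0.29 (edgeR adjusted p = 0.00875, 0.00875 and 0.0146). Bsn was not called without E16.5 p18mKO2+ replicate 2 (edgeR adjusted p = 0.063).

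Clstn2, the gene of a calsyntenin of the postsynaptic membrane (ENSMUSG00000032452, chromosome 9, 97444395 to 98033181, minus strand), had the smallest adjusted p of the named genes. It stood at 5.09, 6.84 and 6.78 CPM in E13.5 p18mKO2- and 33.6, 29.2 and 31.1 in E13.5 p18mKO2+. Its levels at E16.5 were 138, 135 and 175 CPM in p18mKO2- and 109, 86.9 and 128 in p18mKO2+. The order of the groups reversed between stages without overlap at either: p18mKO2+ lay above its controls at E13.5 and below them at E16.5. The p18 effect on Clstn2 was 2.33 ± 0.18 at E13.5, against -0.47 ± 0.17 at E16.5, where it did not pass the test (edgeR adjusted p = 1). The difference was -2.79 ± 0.25 (edgeR adjusted p = 0.000206). Chl1, of the L1 family of adhesion molecules, had a difference of -2.99 ± 0.37, and Lrrtm2, a postsynaptic organizer gene, one of -2.15 ± 0.38 (edgeR adjusted p = 0.000918 and 0.00962).

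Ion channel and transmitter receptor genes also lay on the negative side. Of 37 ion channel genes tested 9 were called (24.3%; median -1.15) and of 33 glutamate and GABA receptor genes 4 (12.1%; median -1.25), all more negative. Over the alternative fits these medians ran from -1.44 to -0.64 and from -1.77 to -0.60. Kcnq3, a potassium channel gene of the M-current, stood at 20.9, 10.6 and 22.3 CPM in E13.5 p18mKO2-, 116, 110 and 85 in E13.5 p18mKO2+, 145, 128 and 120 in E16.5 p18mKO2- and 129, 113 and 107 in E16.5 p18mKO2+. Its E13.5 p18mKO2+ libraries nearly reached the E16.5 level, so that the stage change was 2.86 ± 0.24 in p18mKO2- and 0.17 ± 0.22 in p18mKO2+ (edgeR adjusted p = 2.09e-06 and 0.806). The difference was -2.69 ± 0.32 (edgeR adjusted p = 0.000637). Kcnj3, an inward rectifier gene, had -1.97 ± 0.28, and the calcium channel genes Cacna1e and Cacna1d had -2.15 ± 0.31 and -1.89 ± 0.34.

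Grin2b, an NMDA receptor subunit gene of the immature cortex, varied more between libraries. It stood at 14.8, 8.9 and 12.1 CPM in E13.5 p18mKO2-, 70.4, 39 and 92.8 in E13.5 p18mKO2+, 175, 152 and 246 in E16.5 p18mKO2- and 195, 132 and 149 in E16.5 p18mKO2+. E13.5 p18mKO2+ replicate 2 was the lowest of its group and still above every control of its stage. The difference was -2.76 ± 0.41 (edgeR adjusted p = 0.00335). Gria3 and Gria1, which encode a pair of AMPA receptor subunits, had differences of -2.08 ± 0.46 and -1.25 ± 0.31 (edgeR adjusted p = 0.0296 and 0.0486). They lost the call in 8 and 9 of the 12 fits without 1 library (edgeR adjusted p up to 0.0981 and 0.127).

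The largest negative differences belonged to genes that were at or near 0 in the E13.5 controls. Scrg1, which encodes a small secreted protein, had no count in the 3 E13.5 p18mKO2- libraries and 0.727, 1.87 and 0.299 CPM in E13.5 p18mKO2+. Set against 3 counts for the group, the limit that a count of 0 allows, Scrg1 was at least 17.4-fold higher in E13.5 p18mKO2+ and at least 57.3-fold higher in E16.5 p18mKO2-. Inhba, which encodes the activin beta A subunit (ENSMUSG00000041324, chromosome 13, 16011851 to 16031621, plus strand), had 3 counts in the E13.5 controls together. Its levels at E16.5 were 17.6, 14.2 and 45.9 CPM in p18mKO2- and 30.8, 23 and 21.7 in p18mKO2+, and those in E13.5 p18mKO2+ were 4.22, 5.71 and 4.4. Mc4r, a melanocortin receptor gene, stood at 0.727, 0.38 and 1.35 CPM in E13.5 p18mKO2-, between 9.09 and 23.6 in E13.5 p18mKO2+, at 16.7, 15.5 and 40.5 in E16.5 p18mKO2- and at 16.2, 11 and 19.9 in E16.5 p18mKO2+, so that E13.5 p18mKO2+ overlapped both E16.5 groups. Its stage change was 4.89 ± 0.54 in p18mKO2- and -0.06 ± 0.43 in p18mKO2+, and its difference -4.96 ± 0.68 (edgeR adjusted p = 0.00218). Rgs6, a regulator of G protein signalling, had a difference of -4.54 ± 0.64 and Cdh12, a cadherin gene, one of -4.15 ± 0.46 (edgeR adjusted p = 0.00241 and 0.000568). Mc4r and Rgs6 were the 2 called of 26 neuropeptide, receptor and RGS genes tested (7.69%; median -0.87).

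Fitted values of genes this close to 0 depend on the prior count of the fit, which was edgeR's default and not the 2 used for log2 CPM. The difference was -7.03 ± 1.51 for Scrg1 and -6.34 ± 0.87 for Inhba (edgeR adjusted p = 0.0317 and 0.00212), and the call of Scrg1 was lost in 7 of the 12 fits without 1 library (up to 0.0878). Sla, an adaptor gene of receptor signalling, had -3.82 ± 0.50 and overlaps Tg on the opposite strand. Hist2h2aa1, a histone gene with a near-identical copy, is uncertain: its difference was -6.43 ± 1.60 (edgeR adjusted p = 0.0486), the E13.5 groups overlapped and 10 of the 12 fits did not call it (edgeR adjusted p 0.0616 to 0.136).

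**Figure D3:**
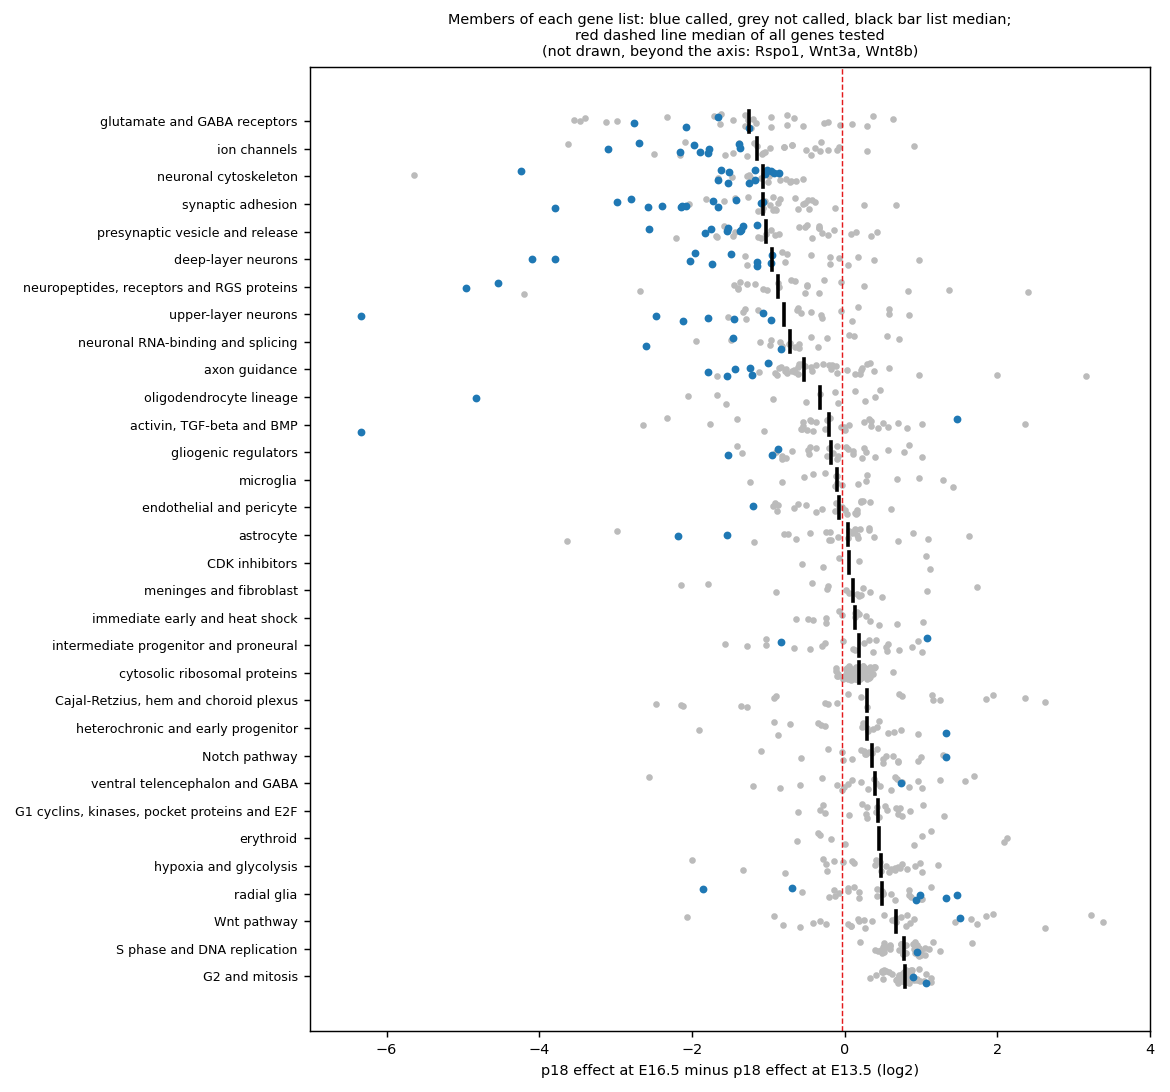
Difference of effects (log2, p18 effect at E16.5 minus at E13.5, x axis) of the members of the 32 gene lists, 1 point per gene, blue if called. Black bars are list medians, from -1.25 for glutamate and GABA receptors to 0.79 for G2 and mitosis, and the red dashed line is the median of all genes tested, -0.03.

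The largest positive differences came from genes of unlike function. P3h2, a prolyl hydroxylase of collagen (ENSMUSG00000038168, chromosome 16, 25959288 to 26105784, minus strand), stood at 18.7, 20.8 and 10 CPM in E13.5 p18mKO2-, 2.42, 2.01 and 1.32 in E13.5 p18mKO2+, 1.17, 0.356 and 1.51 in E16.5 p18mKO2- and 0.856, 2.28 and 1.66 in E16.5 p18mKO2+. Only the E13.5 controls held more than 3 CPM. Its difference was 3.77 ± 0.71 (edgeR adjusted p = 0.0146, and 0.0518 without E16.5 p18mKO2+ replicate 2). Hif3a, of the hypoxia-inducible factor family, stood at 39.8, 45.7 and 32.8 CPM in E13.5 p18mKO2-, 15.2 ± 1.72 (SD, n = 3) in E13.5 p18mKO2+, 11.5, 7.07 and 6.49 in E16.5 p18mKO2- and 14.3, 18.2 and 10.6 in E16.5 p18mKO2+. E13.5 p18mKO2+ overlapped E16.5 p18mKO2+ and lay above E16.5 p18mKO2-. Its stage change was -2.24 ± 0.26 in p18mKO2- and -0.08 ± 0.25 in p18mKO2+, a difference of 2.16 ± 0.35 (edgeR adjusted p = 0.00676). The hypoxia and glycolysis list, with 27 genes tested, had 0 called and a median of 0.48, with Aldoa at 0.67 ± 0.17 and Pgam1 at 0.73 ± 0.20 (edgeR adjusted p = 0.0558 and 0.0668).

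The remaining genes among the 10 most positive were Fndc3c1 (2.86 ± 0.54), the amino acid transporter gene Slc43a1 (1.96 ± 0.46), the recombination repair gene Xrcc3 (1.84 ± 0.41), the homeobox gene Six5 (1.63 ± 0.37), the PIDDosome gene Pidd1 (1.53 ± 0.35), Tcf7l1, Id4 and the LIM protein gene Fhl1 (1.40 ± 0.27). Xrcc3 overlaps Klc1 on the opposite strand. Slc43a1, Xrcc3, Six5, Pidd1 and Tcf7l1 lost their calls in 10, 9, 7, 8 and 9 of the 12 fits without 1 library (edgeR adjusted p up to 0.117, 0.121, 0.121, 0.0984 and 0.129). Fndc3c1 and Fhl1 lost theirs only without E16.5 p18mKO2+ replicate 2 (edgeR adjusted p = 0.0658 and 0.0551).

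Signalling pathways of progenitors held calls at or somewhat above the share of all genes (2.7%). Of 36 Wnt pathway genes tested 29 had a positive difference (median 0.67), and 1 was called (2.78%), Tcf7l1, which encodes a transcriptional repressor of Wnt targets. Tcf7l1 stood at 99.3, 78.5 and 87.2 CPM in E13.5 p18mKO2-, 34.2, 36.2 and 25.6 in E13.5 p18mKO2+, 17.3, 15.4 and 7.42 in E16.5 p18mKO2- and 11.7, 15.7 and 14 in E16.5 p18mKO2+. The E13.5 groups were clearly separated and the E16.5 groups overlapped, with a difference of 1.52 ± 0.36 (edgeR adjusted p = 0.0399). Of 23 Notch pathway genes 18 had a positive difference (median 0.36), and 1 was called (4.35%), the target gene Hes5, at 1.32 ± 0.32 (edgeR adjusted p = 0.0412). Hes5 stood at 49.4, 39.6 and 51.2, 17.1, 28.9 and 27.7, 9.95, 7.53 and 7.59 and 10.5, 9.32 and 13.2 CPM in the same order of groups. Of 34 genes of activin, TGF-beta and BMP signalling tested (median -0.21) 2 were called (5.88%), the ligand gene Inhba more negative and the BMP target Id4 more positive.

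Glial genes lay on both sides of 0, and those called were called on the negative side. Of 29 astrocyte genes tested 2 were called, both more negative (6.9%), 14 had a negative and 15 a positive difference, and the list median was 0.05. That median changed sign between fits, from -0.14 to 0.23. Slc6a11, the GABA transporter gene of astrocytes, stood at 1.97, 2.88 and 2.34 CPM in E13.5 p18mKO2-, 11, 8.27 and 9.52 in E13.5 p18mKO2+, 18.4 ± 2.15 (SD, n = 3) in E16.5 p18mKO2- and 30.4, 21.6 and 23.9 in E16.5 p18mKO2+. Its p18mKO2+ libraries lay above the controls of their stage throughout, by 2.0 ± 0.22 at E13.5 and 0.46 ± 0.20 at E16.5 (edgeR adjusted p = 0.00018 and 1). The difference of -1.54 ± 0.30 was called (edgeR adjusted p = 0.0173), but not in 3 of the 12 fits without 1 library (up to 0.0821). The other astrocyte gene called was Luzp2 at -2.19 ± 0.48 (edgeR adjusted p = 0.0276, lost in 6 of 12).

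Of 32 gliogenic regulators 3 were called, all more negative (9.38%; median -0.18). Etv5, an ETS factor gene downstream of FGF signalling, stood at 17.2, 18.6 and 13.9 CPM in E13.5 p18mKO2-, 57.2, 54.4 and 33.7 in E13.5 p18mKO2+, 72.9, 72.6 and 77.8 in E16.5 p18mKO2- and 80.8, 70.5 and 75.6 in E16.5 p18mKO2+. E13.5 p18mKO2+ lay between its controls and the E16.5 libraries, with replicate 3 the lowest of the 3. The difference was -1.52 ± 0.26 (edgeR adjusted p = 0.00846), and it was kept in every fit without 1 library. Jak2, a kinase gene of cytokine receptors, and the ETS factor gene Etv1 had -0.87 ± 0.19 and -0.95 ± 0.22, and lost their calls in 7 and 10 of those fits (edgeR adjusted p up to 0.0878 and 0.114). Etv1 is also in the deep-layer list and is among the genes called there. Among 13 oligodendrocyte lineage genes tested 1 was called (7.69%), Gpr17, a receptor gene of their precursors. It had 3 counts over E13.5 p18mKO2-, and stood at 2.57, 1.23 and 0.896 CPM in E13.5 p18mKO2+, 3.75, 4.88 and 8.98 in E16.5 p18mKO2- and 7.15, 3.82 and 4.84 in E16.5 p18mKO2+. Its difference was -4.83 ± 0.94 (edgeR adjusted p = 0.0165), with 0.0503 and 0.0611 without E16.5 p18mKO2+ replicate 3 or 2.

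**Figure D4:**
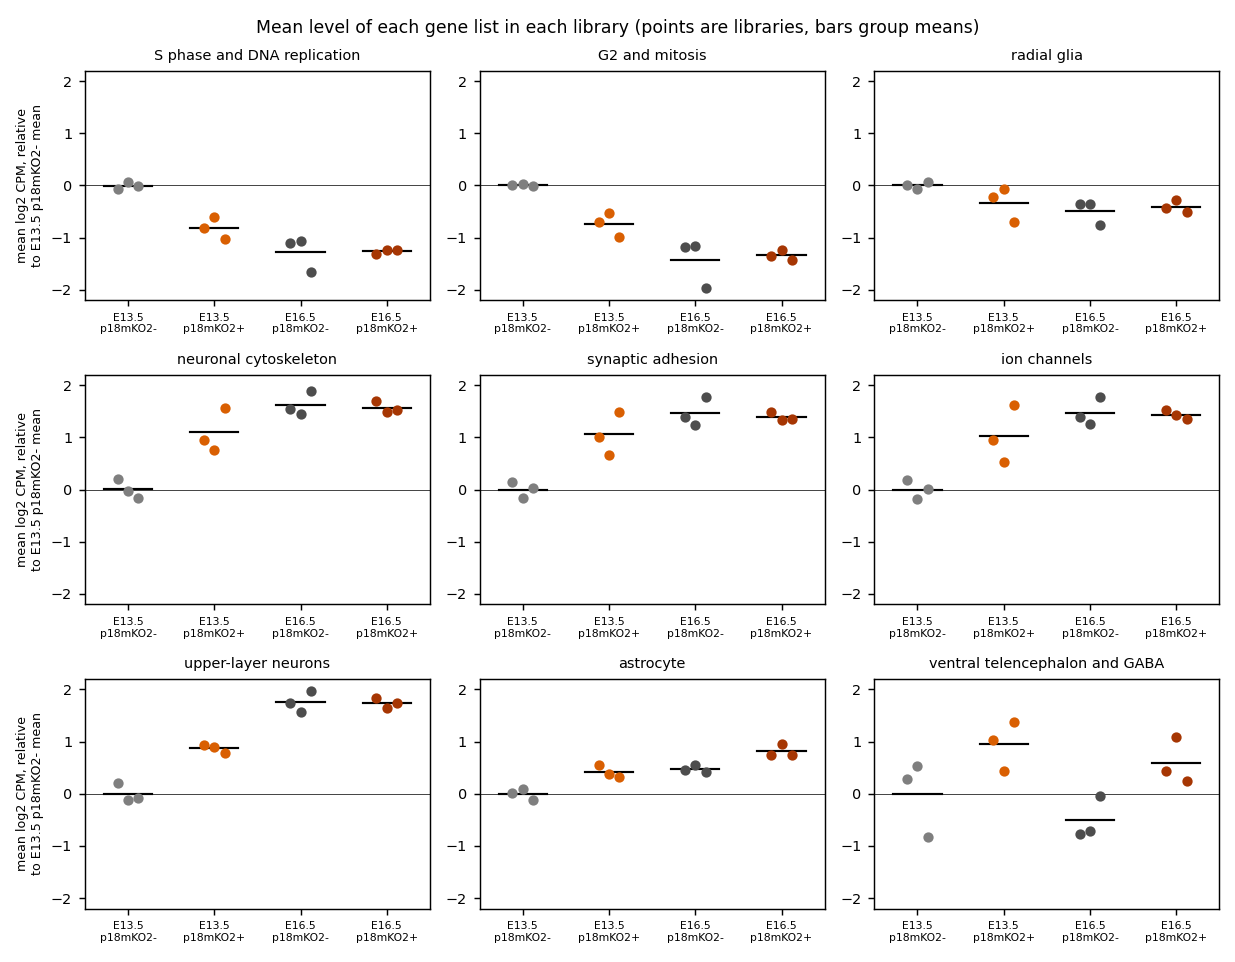
Mean log2 CPM of 9 gene lists in each library, set to 0 at the E13.5 p18mKO2- mean, with 1 point per library and a bar at each group mean (n = 3). In the S phase, mitosis and upper-layer lists each E13.5 p18mKO2+ library lies between the E13.5 p18mKO2- and the E16.5 libraries. In the cytoskeleton, adhesion and ion channel lists the E13.5 p18mKO2+ group mean does. There its replicate 3 (1.57, 1.49 and 1.63) reaches the range of the E16.5 libraries. In the astrocyte list E13.5 p18mKO2+ overlaps E16.5 p18mKO2-, and the ventral telencephalon list does not have that order.

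Markers of other tissues were checked for the same pattern. Ventral telencephalon genes had a median p18 effect of 0.87 (E13.5) or 1.06 (E16.5) over 26 genes. The list means of the E13.5 libraries overlapped, at 0.29, 0.54 and -0.83 in p18mKO2- and 1.04, 0.43 and 1.37 in p18mKO2+. At E16.5 they did not, at -0.77, -0.71 and -0.05 against 0.43, 1.08 and 0.25. The summed TPM of Dlx1, Dlx2, Dlx5, Gsx2 and Gad2 was 62.5 to 203 and 249 to 328 in the E13.5 groups and 73.7 to 83.9 and 168 to 293 in the E16.5 groups, p18mKO2- first, and none of the 5 was at 0. The list median of the difference, 0.40, ranged from -0.21 to 0.66 between fits, and 1 of the genes was called. The part of ventral tissue in these results was not tested.

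A sum of 3 blood vessel markers had the order of groups seen in the neuronal genes, and the wider list of such genes did not. The summed TPM of Pecam1, Cldn5 and Rgs5, none of them at 0, was 27.8 to 37.4 and 56.8 to 67.8 at E13.5 and 70.9 to 87.3 and 78.8 to 101 at E16.5, p18mKO2- first. Of 25 endothelial and pericyte genes 1 was called (4%), Rgs5, a pericyte gene, at -1.20 ± 0.22 (edgeR adjusted p = 0.0132), and the list median was -0.07. Rgs5, a member of the sum, had a mean of 11.7 TPM in E13.5 p18mKO2- and 28.6 in E13.5 p18mKO2+. Over the list, 15 genes had a negative and 10 a positive difference. Its median p18 effect at E13.5 was 0.09, and the list means of the E13.5 libraries overlapped between the groups. The part of blood vessels in the neuronal result was not tested. Choroid plexus and hem markers (Ttr, Folr1, Wnt3a, Wnt2b and Lmx1a, of which Folr1, Wnt3a and Wnt2b were at 0 in some libraries) summed to 18.4 to 489, 33.2 to 1029, 222 to 706 and 479 to 2655 TPM in the 4 groups. The highest was E16.5 p18mKO2+ replicate 2, whose omission also reduced the calls the most. A link between this sum and the number of calls was not tested. Of 25 Cajal-Retzius, hem and choroid plexus genes tested none was called. Wnt8b, a hem ligand gene, had no count in E16.5 p18mKO2- and 0.101, 3.37 and 0 CPM in E16.5 p18mKO2+ (edgeR adjusted p = 0.109).

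Microglia, erythroid, meningeal, immediate early and ribosomal protein genes had no member called, over 17, 10, 16, 17 and 78 genes tested. Their list medians were -0.10, 0.45, 0.11, 0.14 and 0.19. The 72 of 78 ribosomal protein genes with a positive difference leaned less far than the cell cycle genes, with Rps2 at 0.63 ± 0.23 (edgeR adjusted p = 0.182). Hba-x, the embryonic zeta globin gene, stood at 168, 144 and 168, 25.5, 20.1 and 75.7, 2.15, 1.98 and 1.22 and 0.906, 2.13 and 2.72 CPM, with E13.5 p18mKO2+ between E13.5 p18mKO2- and the E16.5 groups. Its difference of 2.09 ± 0.67 was not called (edgeR adjusted p = 0.121).

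How many genes were called rested on the libraries used. The total of 453 was 246 without E13.5 p18mKO2- replicate 2 and 200 without E13.5 p18mKO2+ replicate 1. It was 225, 124 and 179 without E16.5 p18mKO2+ replicate 1, 2 or 3. Without both libraries that held Xist and Y-linked transcripts it was 149, and with Y-linked expression as a covariate 295. All 453 genes kept the sign of their difference in each of these fits. The share of more negative genes lay between 77.9% and 96.8% over the fits without 1 library, against 89% in the full set. On a linear scale of mean CPM, where a difference of differences need not have the sign of a difference of ratios, 401 of the 403 and 50 of the 50 genes kept their sign.

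**Figure D5:**
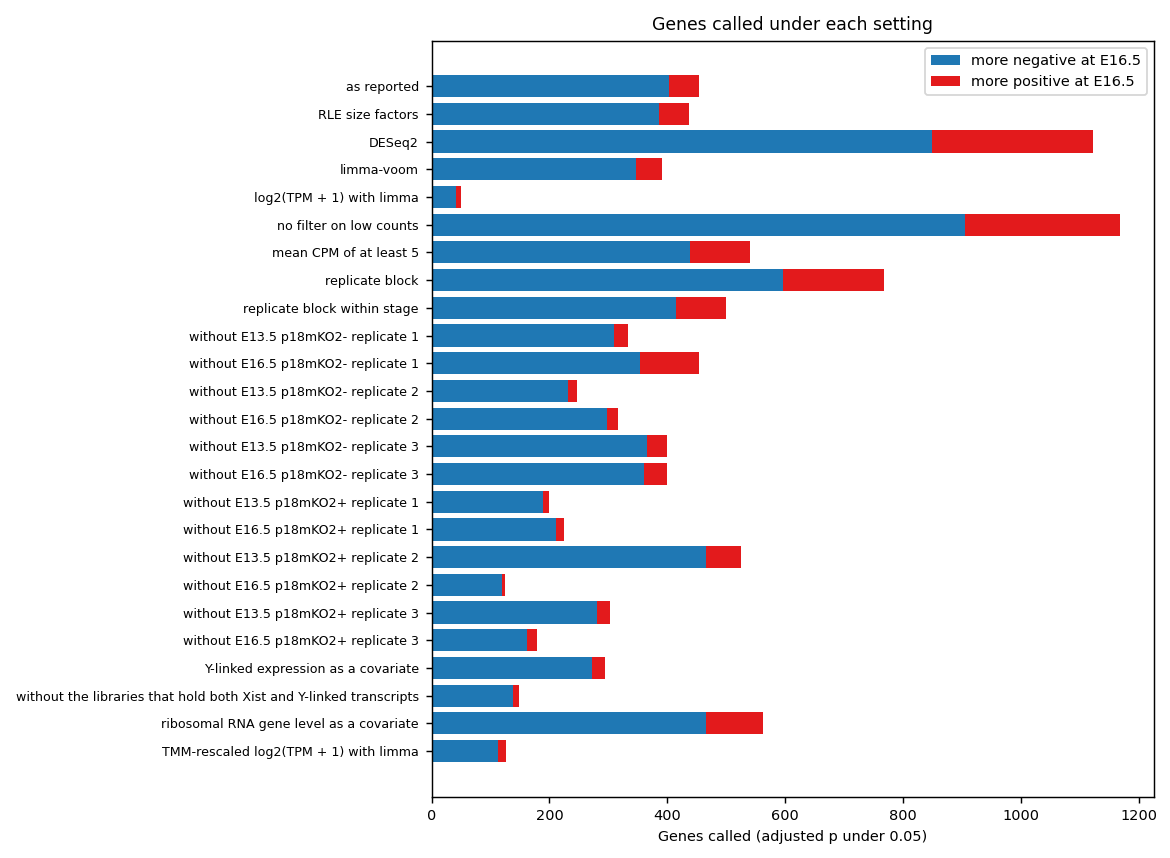
Number of genes called (x axis) in the reported fit and in each alternative fit, more negative in blue and more positive in red. The more negative genes are the larger part in every fit, and the totals run from 50 to 1168.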

How the data were processed

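The 12 libraries hold polyadenylated RNA of laser-microdissected tissue, made with a directional kit, per the labels' protocols. Tools and build in the submitters' processing notes were cutadapt 3.4, STAR 2.7.2b, RSEM 1.2.31 and GRCm38 (mm10). Not given in the sources used here were the annotation release and strand setting. The authors' files hold, per the file headers, an expected count for every gene, a sum that shares multi-mapped reads and can be fractional. They also deposited TPM, scaled for transcript length and to a fixed total, per the file headers. Among 55487 gene identifiers 55141 came with a symbol and 55227 were in the GENCODE M21 annotation of GRCm38, the source of coordinates.

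Expected counts were rounded, filtered (filterByExpr), scaled by TMM (factors 0.89 to 1.07) and entered quasi-likelihood models in edgeR 4.0.16 (R 4.3.3) with 1 mean per group, leaving 8 residual degrees of freedom (common biological coefficient of variation 0.311). A gene was called when its Benjamini-Hochberg adjusted p lay under 0.05. SE is the absolute log2 value divided by the square root of F. CPM use TMM-scaled totals, and log2 CPM a prior count of 2. Counting intervals are exact at 95%, and they and the floor of 3 counts cover counting error only. The calculation was tested on simulated counts. No 2 libraries held identical counts.

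Libraries, contrast and the 32 gene lists were chosen with earlier results of these data known, so list counts and medians are descriptions, set beside all genes tested. Of the 892 genes in the lists 49 are in 2 or more, so the counts of different lists are not separate. Named genes are Cdkn2c, the 10 most negative and 10 most positive called genes with a group mean of at least 5 TPM (leaving out unnamed, predicted, pseudo-, mitochondrial and sex-marker genes), and up to 4 called members of each list with the smallest p, or 2 members where none was called. Alternatives were RLE scaling, DESeq2 1.42.0, limma-voom and log2(TPM + 1) with limma 3.58.1, no filter, a mean of at least 5 CPM, the replicate number as a block, each library left out, Y-linked expression and a ribosomal RNA gene as covariates, and the 2 libraries with transcripts of both sexes left out. A TMM-rescaled log2(TPM + 1) fit was added after seeing the data. Some genes that this rule names are not reported here. Figures used matplotlib 3.10.9.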

Additional observations from a re-analysis of the deposited data

Results flagged for a closer look

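Each value here is a p18 effect at E16.5 minus the p18 effect at E13.5 (log2), set apart because the test of that difference between the stages passed an edgeR quasi-likelihood Benjamini-Hochberg adjusted p under 0.05. Over all genes tested 453 differed in this way. Dcx stood at -1.53, Dync1i1 at -4.24, Kif5a at -1.51 and Kif3c at -0.97 among cytoskeletal genes. The RNA-binding genes were Rbfox1 at -2.60, Khdrbs2 at -1.46 and Elavl2 at -0.83. Deep-layer genes were Hs3st4 at -4.10, Nxph3 at -3.80, Crim1 at -1.49 and Sox5 at -1.73, and upper-layer genes Inhba at -6.34, Mef2c at -2.47, Unc5d at -1.79 and Pou3f2 at -1.45. Guidance genes were Robo2 at -1.53, Sema7a at -1.43 and Dcc at -1.21.

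Synaptic genes were Cplx1 at -1.83, Rab3a at -1.36, Rab3c at -1.75, Bsn at -1.54, Clstn2 at -2.79, Chl1 at -2.99 and Lrrtm2 at -2.15. Channel genes were Kcnq3 at -2.69, Kcnj3 at -1.97, Cacna1e at -2.15 and Cacna1d at -1.89, and receptor genes Grin2b at -2.76, Gria3 at -2.08, Gria1 at -1.25, Mc4r at -4.96 and Gpr17 at -4.83. Further negative values were Scrg1 at -7.03, Hist2h2aa1 at -6.43, Rgs6 at -4.54, Cdh12 at -4.15, Sla at -3.82, Slc6a11 at -1.54, Luzp2 at -2.19, Etv5 at -1.52, Jak2 at -0.87, Etv1 at -0.95, Tnc at -1.86 and Rgs5 at -1.20.

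On the positive side were P3h2 at 3.77, Fndc3c1 at 2.86, Hif3a at 2.16, Slc43a1 at 1.96, Xrcc3 at 1.84, Six5 at 1.63, Pidd1 at 1.53, Tcf7l1 at 1.52, Id4 at 1.48 and Fhl1 at 1.40. Cell cycle and progenitor genes among them were Kif23 at 0.90, Ccnb2 at 1.07, Sox2 at 0.94, Emx2 at 0.99, Chd7 at 1.08, Hes5 at 1.32 and Hmga2 at 1.33.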

How the results depend on the processing

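Over 24 alternative fits the 453 genes kept the sign of their difference in all but 2 fits, on log2(TPM + 1) (451 of 453) and on its TMM-rescaled form (452 of 453), counting the genes each fit tested. Since these genes were chosen by the contrast in the same libraries, kept signs were likely from the start. The number called varied. It was 1122 with DESeq2 (849 more negative, 273 more positive), 1168 without a filter (905 and 263), 50 on log2(TPM + 1) with limma (41 and 9) and 126 on TMM-rescaled log2(TPM + 1) (112 and 14). With the Y-linked covariate 295 were called (22 more positive), and without the libraries of both sexes 149 (138 and 11). More positive genes numbered 102 at a mean of at least 5 CPM and 96 with the ribosomal RNA covariate. Without 1 library the total lay between 124 and 525, more negative genes between 120 and 465 and more positive ones between 4 and 100. The share with E13.5 p18mKO2- lowest (98.9% to 100%) or highest (92.3% to 100%) moved little over the same fits. More negative genes made up 89% of the calls, against 75.7% with DESeq2, 77.5% without a filter and 77.8% with the replicate block. The log2(TPM + 1) fit put the median of all genes at 0.07 against -0.03. Of 1508 values of the 63 named genes called, 1175 stayed called and 333 did not, and 14 genes were called in every fit. Without 1 library the difference of Cdkn2c lay between -0.04 (without E16.5 p18mKO2- replicate 3) and 0.48. List medians that changed sign were those of CDK inhibitors, astrocyte, ventral, early progenitor, Cajal-Retzius, endothelial, microglia, meninges and ribosomal protein genes. Where these values moved, the cause was not tested.

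The labels number the replicates alike in all groups, and the data do not pair them. Deviations of same-numbered libraries correlated at 0.01, -0.01 and 0.03 at E13.5 and at 0.10, 0.06 and 0.15 at E16.5. With the replicate block over all groups 767 genes were called, 170 of them more positive, and with a replicate block within stage 499, with 84 more positive. Totals ran from 17.1 M to 21.84 M, and at E13.5 every p18mKO2+ library was deeper than every control. No difference under 4.0 SE was called (median SE over all genes 0.35).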

Other observations

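A ribosomal RNA gene, CT010467.1, took a large and uneven share of the libraries although polyadenylated RNA was used. It stood at 52400 to 88000 CPM in E13.5 p18mKO2-, 26200 to 65800 in E13.5 p18mKO2+, 70600 to 152000 in E16.5 p18mKO2- and 16600 to 39600 in E16.5 p18mKO2+. At E16.5 every p18mKO2+ library lay below every p18mKO2- library, and at E13.5 the groups overlapped. The median within-group SD of log2 CPM was 0.30 in E13.5 p18mKO2-, 0.252 in E13.5 p18mKO2+, 0.328 in E16.5 p18mKO2- and 0.201 in E16.5 p18mKO2+.

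Members of the lists with no call that the rule for named genes selects had these differences of effects (log2 ± SE), none of which passed the edgeR test. Reln, the Cajal-Retzius cell signal, stood at -1.28 ± 0.38, and the microglia genes C1qc and P2ry12 at -1.24 ± 0.51 and -0.82 ± 0.46. The adult globin gene Hba-a1 stood at 0.91 ± 0.28. The meningeal and matrix genes Ccbe1 and Adamts2 stood at -2.14 ± 0.66 and -1.78 ± 0.59, although both were far higher at E16.5 than at E13.5 in both p18 groups. Dusp1 and Jun, immediate early genes, stood at -0.64 ± 0.22 and 0.69 ± 0.29, and Rps18 at 0.38 ± 0.26.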
